A study of Mus musculus with 2 samples.

Results

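Ifi202b, which encodes a DNA-binding protein of the interferon-inducible p200 family, was examined in every cell population of mouse back skin. It is 1 of 31053 genes in the feature table and was found there by its symbol, with the identifier ENSMUSG00000026535. It was selected on its raw UMIs, its share of cells with a UMI and its UMIs per top cell in both libraries, where its total differed, so these values are descriptions and carry no test. Single-cell RNA-seq was performed at postnatal day 53 on back skin from a pair of mice, 1 control and 1 miR-205 inducible, with 1 library each. The comparison asks how skin cells differ when the microRNA miR-205 is induced.

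Both mice are labelled as strain C57BL/6, were matched for gender and carried a K14-H2BGFP allele. The study's methods describe the inducible line as a pTRE2-miR-205 transgene injected into FVB mice and bred to a Krt14-rtTA driver, so that doxycycline induces the microRNA in keratin 14 cells. The methods state that controls were littermates. The extraction protocol says that both mice received doxycycline for 4 days from postnatal day 49, but the control is described as untreated in its own sample entry. Sorting set the epidermal, follicular and dermal fractions to 3:5:2, aiming at 5000 cells per library. Strain background, transgene, doxycycline and mouse cannot be told apart with 1 mouse per group.

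Proteins of this family, also called PYHIN proteins, join a pyrin domain for protein contacts to a HIN domain that binds DNA. Ifi202b protein carries HIN domains without a pyrin domain, and it is known as an inhibitor of AIM2, the sensor that assembles an inflammasome on cytosolic DNA. Its expression is induced by interferon in immune cells and is known to vary strongly between mouse strains, being low in C57BL/6. The family genes are closely related and lie side by side on chromosome 1, so how reads were divided among similar copies is uncertain for each of them.

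Ifi202b lies on the minus strand of chromosome 1 from 173962569 to 173982844 (RefSeq, GRCm38.p6), spanning 20276 bp. Ifi203 lies beside it at 173920400 to 173942866, and Ifi205 at 174011998 to 174031755. The endogenous Mir205 gene is 19.5 Mb away on the same chromosome. Mir205 has no row under its symbol in the feature table, so the induction itself was not checked here. The promoter is shown because several family members beside it on the chromosome differed from Ifi202b in where they were detected. Its sequence is taken from GRCm38.p6, and whether these mice carry the same bases was not tested. The 250 bases before its start, chr1:173982845-173983094 on the minus strand, read as follows, with capitals marking a gamma-activated sequence (TTCNNNGAA).

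Ifi202b promoter: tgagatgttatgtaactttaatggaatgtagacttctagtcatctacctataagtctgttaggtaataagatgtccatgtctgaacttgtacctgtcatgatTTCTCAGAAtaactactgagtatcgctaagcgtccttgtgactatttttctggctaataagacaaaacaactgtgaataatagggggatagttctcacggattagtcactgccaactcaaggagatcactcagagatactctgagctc

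This motif, which reads the same on both strands, starts 148 bases before the gene and stands in 7.02% of 32851 RefSeq promoters of 250 bases. No match to an interferon-stimulated response element (in 2.98% of promoters), a TATA box (TATAAA, 12.4%) or an AP-1 motif (TGANTCA, 6.75%) was found in this window when both strands were searched. The mature miR-205 sequence is shown because its level is what the study changed. Its seed, bases 2 to 8, is in capitals, and it lies at chr1:193507503-193507524 on the minus strand.

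mmu-miR-205-5p: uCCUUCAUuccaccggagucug

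The matching site ATGAAGG was found 0 times in the 234-base 3′ UTR of Ifi202b and 0 times in the 1796-base transcript (NCBIM37 annotation). Of 12293 tested genes with an annotated 3′ UTR, 12.2% held the site, and of 694 genes with a 3′ UTR within 50 bases of the same length, 2.31% did.

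The control library held 4545 barcodes with 55465594 unique molecular identifiers (UMIs, each counting 1 captured transcript) and the induced library 4264 barcodes with 49733560 UMIs. The study's filter left 3936 and 3628 cells with medians of 12198.5 and 11752.5 UMIs. Both libraries shared 11 barcode sequences, and 5 of these passed the filter in both. Cells formed 26 clusters, 17 epithelial and 9 outside the epithelium, and Ifi202b and the gene lists described here were withheld from the clustering. Clusters are called by a cell type only where listed markers defined them, and 9 stayed unnamed. All intervals are 95% and cover counting error only.

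Ifi202b was chiefly a keratinocyte transcript in both libraries, and its level was lower in the induced library. In the control it gave 34364 UMIs, or 679.6 CPM (672 to 687). CPM, for counts per 1000000, is a gene's UMIs divided by all UMIs of the same cells. In the induced library it gave 15805 UMIs, or 348 CPM (343 to 354). The log2 ratio of induced over control was -0.96 (-0.99 to -0.94). Over all cells 1.09% of the 14484 genes tested lay at a log2 ratio of -1 or less, and Ifi202b, just short of that, ranked 176th from the lowest. The median gene lay at 0.10.

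A UMI was seen in 55.5% of control cells and 37.9% of induced cells. After each cell was thinned to 5000 UMIs, which left out 304 and 328 shallower cells, the shares were 47.8% and 31.8%. No small set of cells carried the total. The top 5 cells held 1.87% of the control UMIs and 3.16% of the induced UMIs, and the single highest cells had 159 and 125 UMIs. At least 10 UMIs were counted in 1010 control cells and 498 induced cells.

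The libraries also differed in their mix of clusters, with interfollicular epidermis (IFE) basal-like cells making up 15.7% of control and 10.1% of induced cells. When both libraries were given the control mix of clusters, the log2 ratio was -0.60, and it was -0.61 with the induced mix. With control levels throughout and only the mix changed, it was -0.36. The level within clusters and the mix of clusters both differed between the libraries.

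The highest level was found in IFE basal-like cells (cluster 0), named for the proliferative layer of the epidermis and marked here by Krt14, Krt5, Thbs1 and Igfbp3. It was 1725 CPM (1699 to 1751) in the control and 1303 CPM (1275 to 1331) in the induced library, with a log2 ratio of -0.40 (-0.44 to -0.37). Nearly every cell took part, as 98.9% of control and 97.3% of induced cells held a UMI. The median cell had 25 UMIs in the control and 17 in the induced library. This cluster held 50.9% of all Ifi202b UMIs in the control and 52.0% in the induced library.

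IFE suprabasal-like cells (cluster 9, Krt1 and Krt10) followed with 1363 CPM (1324 to 1404) in the control and 776 CPM (744 to 808) in the induced library, a log2 ratio of -0.81. Their single cells were spread more widely. Among control cells 11.4% had no UMI and 32.4% had 30 or more, and among induced cells 18.4% had none and 17.8% had 30 or more. Cluster 4, unnamed and led by Plk2, Fst and Ntrk2, came next at 1079 and 551 CPM. These 3 clusters stood in the same order in both libraries, and neighbouring intervals did not overlap.

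Levels between 200 and 600 CPM in the control were found in several further populations. Cluster 16 (Akr1c18, Plin2) had 579 and 373 CPM, cycling-like cells (cluster 13, Mki67 and Top2a) 564 and 248 CPM, and cluster 10 (Krt8, Krt18, Ccl2) 535 and 323 CPM. The control intervals of these 3 clusters overlapped from neighbour to neighbour. Upper hair follicle-like cells (cluster 5, Krt79 and Defb6), which line the canal opening to the surface, had 283 and 225 CPM. Cluster 14 (Pou3f1, Hs3st6) had 225 and 125 CPM. Its Krt14 and Krt5 together, at 26606 CPM, stood above the 24359 CPM of IFE basal-like cluster 0. The highest Ifi202b level was therefore not shared by every cluster rich in these basal keratins.

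In inner bulge-like, hair germ-like and sebaceous gland-like cells the transcript was scarce. Inner bulge-like cells (cluster 3, Krt75 and Fgf18) had 11.6 CPM (6.51 to 19.2) in the control and 8.84 CPM (5.77 to 12.95) in the induced library. Hair germ-like cells (cluster 15, Lgr5 and Gas1) had 22.7 and 5.68 CPM, from 10 and 6 UMIs. Sebaceous gland-like cells (cluster 21, Scd1 and Mgst1) had 26.4 and 20.4 CPM. From cluster 6 downward in the control, each interval overlapped that of the next cluster.

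**Figure D1:**
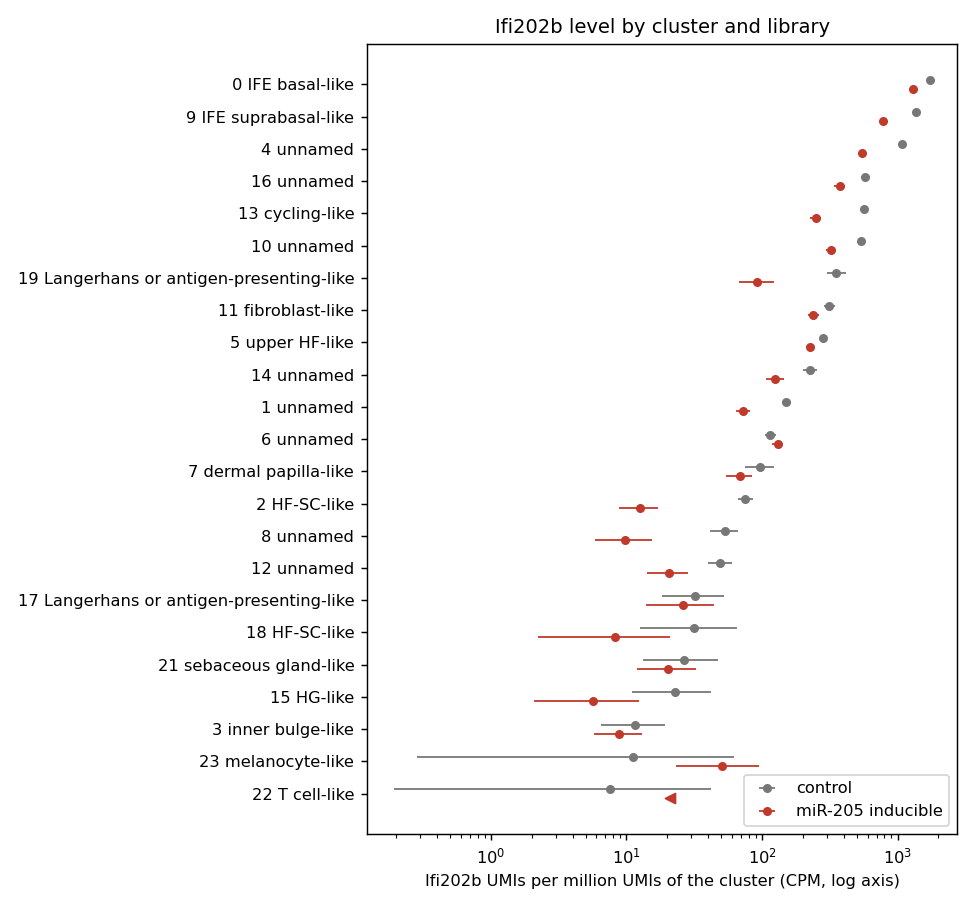
Ifi202b CPM (log axis) in the 23 clusters with at least 20 cells in each library, grey for control and red for miR-205 inducible, with bars as 95% Poisson intervals; the arrowhead is the limit set by 3 counts where no UMI was seen. IFE basal-like cells stood highest at 1725 and 1303 CPM, and T cell-like cells lowest.

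Outside the epithelium the level was 210 CPM (195 to 226) in the control and 124 CPM (115 to 135) in the induced library. Fibroblast-like cells (cluster 11, Col1a1 and Dcn) had 314 CPM (286 to 344) and 239 CPM (218 to 263), from 451 UMIs in 123 cells and 449 UMIs in 166 cells. A UMI was found in 64.2% of the control cells and 56.6% of the induced cells. Dermal papilla-like cells (cluster 7, Notum and Rspo3), which signal to the follicle, had 96.6 and 68.2 CPM. Langerhans-like cells (cluster 17, Cd207) had 32.0 and 26.0 CPM, from 16 and 13 UMIs, with intervals that overlapped.

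A second antigen-presenting-like cluster (cluster 19, led by Lyz2, Il1b and Cd14) had 354 and 92.3 CPM. Among its 36 control cells, however, the top 5 cells held 82.8% of the 163 UMIs, and 1 cell had 77. Without the top 5 cells of each library 28 UMIs were left in the control and 15 in the induced library. Keratins 14 and 5, transcripts of the epidermis, were also higher in the control cells of this cluster, at 3792 against 1197 CPM, and their part in the difference was not tested.

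Small populations gave few counts. T cell-like cells (cluster 22) had 1 UMI in 29 control cells and none in 28 induced cells, where 3 counts would be a share of 10.7% of cells with a UMI. Melanocyte-like cells (cluster 23) had 1 and 9 UMIs. The 3 clusters with fewer than 20 cells in a library were Schwann-like (25 UMIs in 13 control cells, 1 in 19 induced cells), endothelial-like (4 and 10 UMIs) and cluster 20 (0 and 6 UMIs).

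Free RNA from broken keratinocytes can place UMIs in any droplet, so Ifi202b was set beside Krt14 and Krt5. Whole libraries held 52.1 and 32.4 Ifi202b UMIs per 1000 UMIs of these keratins. Fibroblast-like cells held 434 and 379 per 1000, well above those ratios. Dermal papilla-like cells (67.1 and 99.4) and antigen-presenting-like cluster 19 (93.4 and 77.1) also lay above them. Melanocyte-like cells, with 1 and 9 Ifi202b UMIs, lay below at 7.14 and 25.7. Langerhans-like cells held 28.0 and 31.1 per 1000, near or below the library ratios. The T cell-like clusters, with 43 and 33 keratin UMIs, were too small for a ratio.

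In 21 of the 23 clusters with at least 20 cells per library the level was lower in the induced library, and in 16 of these the interval of the log2 ratio lay below 0. Clusters 6 and 23 were higher, both with intervals that held 0. Cluster 6, led by Lor and Cst6 of the cornifying layers, had 115 and 131 CPM, a log2 ratio of 0.18 (-0.01 to 0.38). Because all clusters come from the same pair of libraries, they are not replicates. The intervals treat UMIs as independent and leave out the spread between cells. In IFE basal-like cluster 0 the variance of Ifi202b UMIs per cell was 14.9 times the mean in the control and 16.9 times in the induced library.

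Among the 19 clusters with at least 20 Ifi202b UMIs, 6 had a log2 ratio of -1 or less. The ratio was -2.57 in HF-SC-like cluster 2, where 2.45% of 9187 genes lay that low and Ifi202b ranked 17th from the lowest. Cluster 8 (Pthlh, Serpinb11) had -2.40, against 1.93% of genes, and a rank of 11th. Its top 5 control cells, however, held 72% of its 75 control UMIs. Without the top 5 cells of each library 21 and 11 UMIs were left. Ratios of -1.93 in cluster 19, -1.25 in cluster 12 (Tagln, Acta2, Lgr5), -1.18 in cycling-like cells and -1.06 in cluster 1 (Sostdc1, Vsnl1) stood against 6.93%, 3.21%, 2.30% and 1.12% of genes. In cluster 12 the top 5 control cells held 69.9% of 93 UMIs, and 28 and 9 UMIs were left without the top 5 of each library. In IFE basal-like cluster 0 Ifi202b ranked 937th from the lowest of 9959 genes, and in fibroblast-like cluster 11 it ranked 972nd of 8572.

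**Figure D2:**
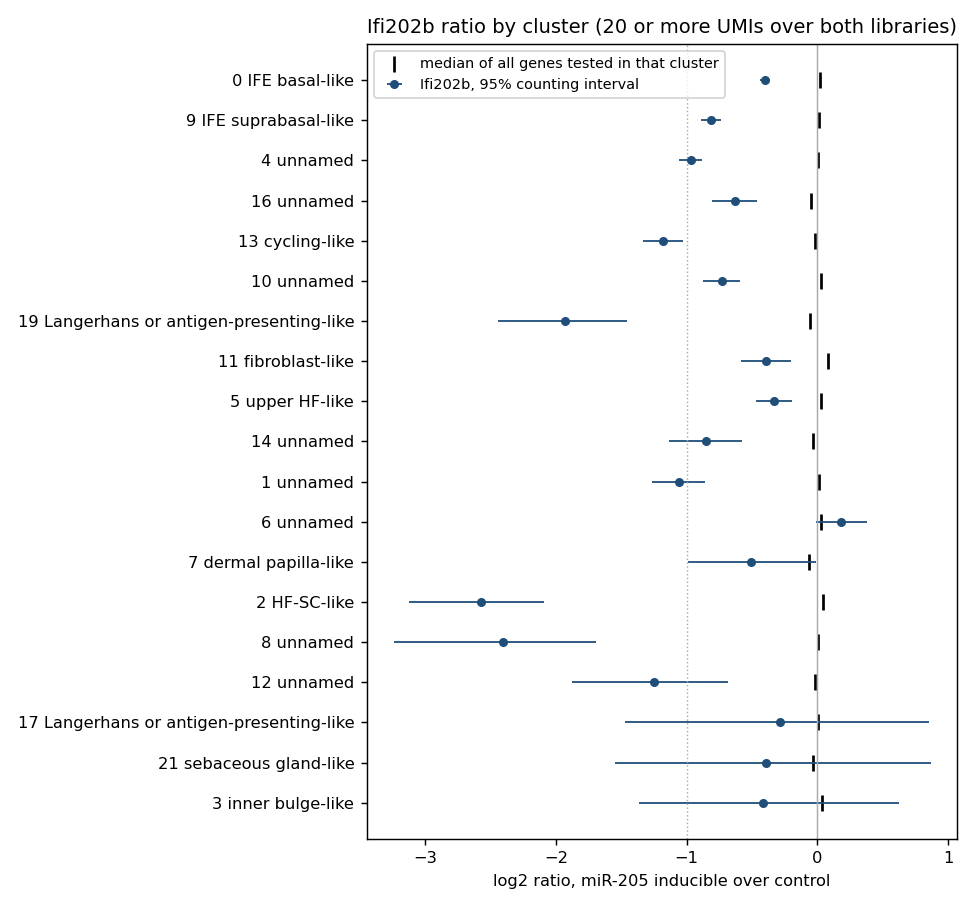
Log2 ratio of Ifi202b, induced over control, in the 19 clusters with at least 20 Ifi202b UMIs over both libraries, with 95% counting intervals; black ticks are the median of all genes tested in the cluster and the dotted line marks -1. The point of cluster 6 lies above 0 and the other 18 below.

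Hair follicle stem cell (HF-SC)-like cells, which rest in the bulge and renew the follicle, came from clusters 2 and 18 with Cd34, Krt24 and Postn as markers. Together they had 254 UMIs in 357 control cells and 42 UMIs in 355 induced cells, or 72.5 CPM (63.8 to 82.0) and 11.9 CPM (8.58 to 16.1). The log2 ratio was -2.59 (-3.11 to -2.13). It moved to -4.17 with only cells under 5% mitochondrial UMIs, to -1.81 after thinning and to -1.84 when cells were assigned singly by marker UMIs. The control sum rested on few cells, since 10 cells with at least 5 UMIs held 188 of the 254. The highest of them had 47, 36, 23, 20 and 17 UMIs, and the highest induced cells had 13 and 9.

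The share of cells with a UMI was 17.9% and 5.63%, or 9.58% and 3.81% after thinning. The share among T cell-like cells was 3.45% in the control, at median depths of 4470 UMIs against 9880.5 UMIs in cluster 2. With intervals of 0.0873 to 17.8% in the control and 0 to 12.3% in the induced library, T cell-like cells were too few and too shallow to set a background share for either library. The 10 control cells differed from HF-SC-like control cells without a UMI in other ways. They were deeper, with a median of 16057 UMIs against 9286, and their median doublet score was 0.0972 against 0.0212. Their summed HF-SC markers stood at 5931 CPM against 11717, their summed IFE basal markers at 20817 against 19564 and their summed suprabasal markers at 1314 against 1714. Within the basal list Igfbp3 was at 902 against 300 CPM and Krt5 at 4274 against 4743 CPM. The part of mixed droplets in this sum was not tested.

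**Figure D3:**
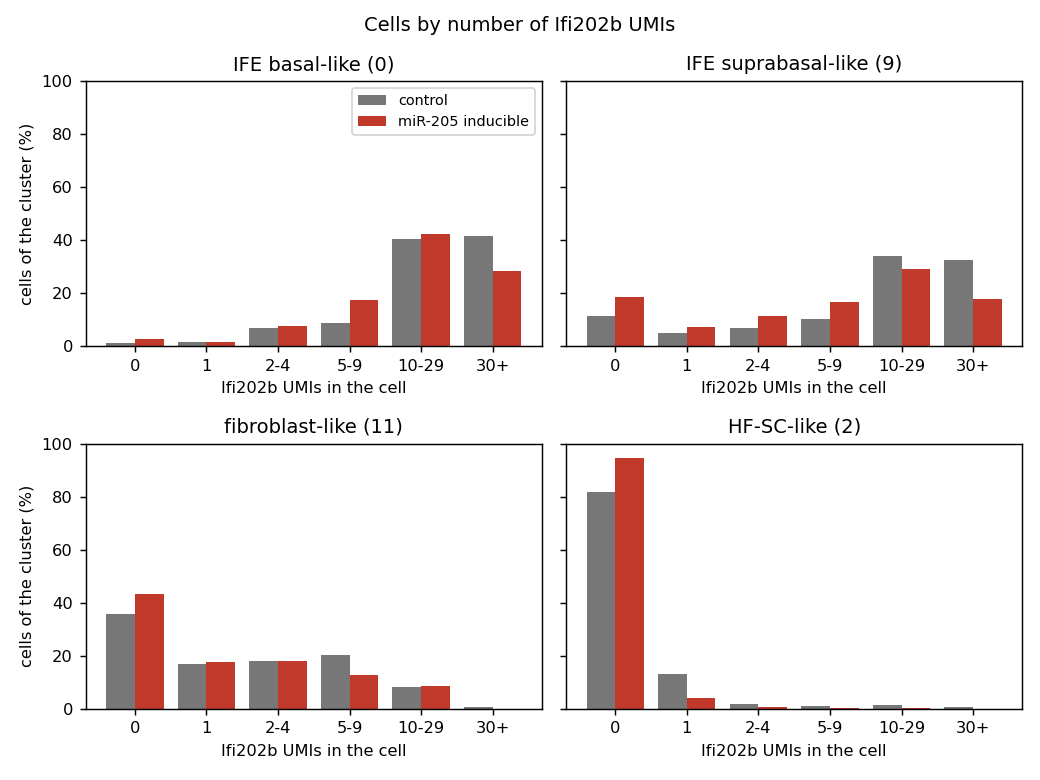
Percent of cells (vertical axis) by number of Ifi202b UMIs in the cell (horizontal axis) in 4 clusters, grey for control and red for miR-205 inducible. In IFE basal-like cells 41.7% of control and 28.5% of induced cells had 30 or more UMIs, while 81.9% and 94.6% of HF-SC-like cells had none.

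The other family genes differed among themselves in how they divided between epithelium and dermis. Of 22 PYHIN names searched, 13 were in the feature table and 9 had at least 20 UMIs over both libraries. Over all cells 0 of these 9 had a log2 ratio of -1 or less and 2 had a ratio of 1 or more, where 6.39% of all genes did. Ifi209 had 18 and 40 UMIs (1.29) and Ifi211 had 313 and 600.0 UMIs (1.09). The remaining ratios were 0.90 for Ifi204, a DNA sensor of myeloid cells, and 0.88 for Mndal. Ifi207 lay at 0.84, Ifi205 at 0.73 and Ifi203 at 0.58. Clusters outside the epithelium, which held most UMIs of these genes and of Ifi211, had 433 control cells and 634 induced cells. Ratios within them were 0.27 for Ifi204, 0.31 for Mndal, 0.13 for Ifi207, 0.05 for Ifi205, 0.21 for Ifi203 and 0.41 for Ifi211. The intervals of Ifi205 and Ifi207 held 0. Ifi209 (3 and 32 UMIs) lay at 2.69 there and Ifi202b at -0.76. The all-cell ratios therefore cannot be read apart from the mix of clusters. Aim2, the inflammasome sensor, gave 46 and 38 UMIs (-0.12), which divide into 24 and 4 in the epithelial clusters and 22 and 34 outside them. Ifi206, Ifi208, Ifi213 and Ifi214 had from 0 to 7 UMIs in each library.

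Epithelial clusters held 97.9% of the control Ifi202b UMIs and 96.1% of the induced ones, while making up 89.0% of control and 82.5% of induced cells. For Ifi205 the epithelial share was 1.21% and 0.327%, and for Ifi211 it was 1.60% and 1.5%. It was larger for Ifi209 (83.3% and 20%), Aim2 (52.2% and 10.5%) and Ifi203 (21.5% and 2.12%), and lay at 9.80% or less for Ifi204, Ifi207 and Mndal. Fibroblast-like cells alone held 87.9% and 87.6% of the Ifi205 UMIs and 85.0% and 84.2% of the Ifi211 UMIs. There 7 family genes were tested and 0 passed a log2 ratio of 1 in either direction, where 4.96% of genes were that much higher and 1.70% that much lower, with Ifi202b at -0.39, Ifi204 at 0.48, Ifi211 at 0.54 and Ifi207 at 0.89. HF-SC-like cluster 2 had 0 UMIs in both libraries for each of the other 8 tested genes, where 3 counts would be 0.914 and 0.987 CPM.

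Over all epithelial clusters, where 1.59% of 13242 genes lay at -1 or less, 5 family genes beside Ifi202b had at least 20 UMIs. Of these 3 lay at -1 or less and 0 at 1 or more, beside Ifi202b itself at -0.93. The log2 ratio was -2.65 (-3.62 to -1.89) for Ifi203, -2.22 (-4.35 to -0.82) for Aim2, -1.05 (-2.49 to 0.15) for Mndal, -0.64 (-2.13 to 0.64) for Ifi209 and -0.23 (-1.40 to 0.86) for Ifi204. The intervals of the last 3 held 0, and all rest on few UMIs. Aim2 (24 and 4 UMIs), Ifi203 (106 and 14) and Mndal (20 and 8) reached the minimum of 20 UMIs mainly through their control counts. Ifi205 (5 and 2 UMIs), Ifi207 (1 and 7) and Ifi211 (5 and 9) fell short of it. The count of genes at -1 or less therefore depends on this minimum and cannot be read against the share of all genes.

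Ifi203, the neighbour toward lower coordinates, was split by tissue. Its UMIs in the epithelial clusters numbered 106 in the control and 14 in the induced library, and outside the epithelium 387 and 647. In IFE basal-like cells it had 33 and 2 UMIs, a log2 ratio of -3.06 (-6.46 to -1.39), where 1.63% of genes lay at -1 or less. In fibroblast-like cells it had 277 and 398 UMIs, a ratio of 0.14. Whether the epithelial Ifi203 UMIs come from reads that also match Ifi202b was not tested.

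**Figure D4:**
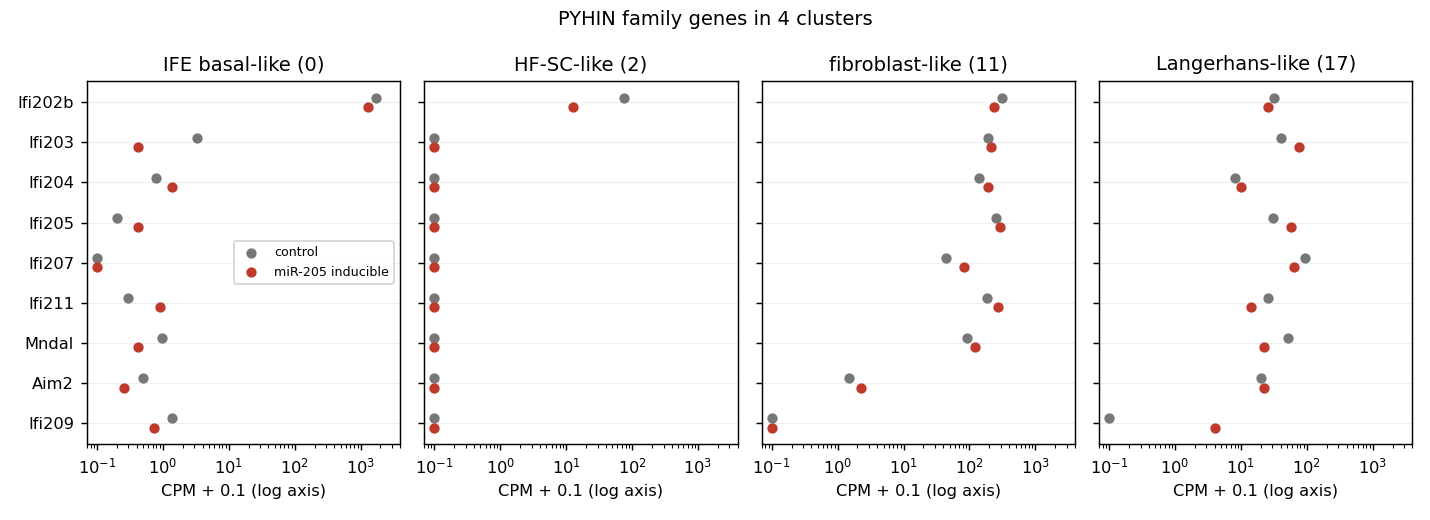
CPM plus 0.1 (log axis) of 9 PYHIN genes in 4 clusters, grey for control and red for miR-205 inducible; points at the left edge had no UMI. The 8 genes beside Ifi202b had no UMI in HF-SC-like cluster 2, and Ifi205 reached 252 and 286 CPM in fibroblast-like cells.

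Within the fibroblast-like cluster, family genes and Ifi202b were found in the same cells. In control cells with 5 or more Ifi202b UMIs (36 cells) Ifi205 stood at 372 CPM, and in those without a UMI (44 cells) at 106 CPM. The induced cells showed a wider gap, with 725 CPM in 35 cells and 35.7 CPM in 72 cells. Ifi204 had 255 against 32.9 CPM in the control and 402 against 35.7 CPM in the induced library. Cells with Ifi202b were also deeper, with a control median of 13967 against 8135.5 UMIs, and had a summed fibroblast marker level of 135851 against 75018 CPM. Krt14 and Krt5 together were at 1384 against 200 CPM in the control and at 300 against 532 CPM in the induced library. The part of depth, keratinocyte RNA or fibroblast markers in this pattern was not tested.

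Over all cells, no tested gene near Ifi202b had a ratio as low, while in the epithelial clusters alone Ifi203, Aim2 and Mndal lay lower than Ifi202b. Of the 20 genes annotated on each side, 13 were tested, 0 had a log2 ratio of -1 or less and 2, Ifi209 and Ifi211, had 1 or more. In the 10 Mb window around the gene 9.30% of 86 tested genes lay beyond a log2 ratio of 1 in either direction, against 10.3% of chromosome 1 and 7.49% of all genes. In IFE basal-like cells the shares were 4.35%, 3.56% and 4.14%.

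A short list of genes known to differ between laboratory strains by a null or copy number allele was also read, of which 2 beside Ifi202b had enough UMIs. Nnt, a mitochondrial transhydrogenase, had 31 UMIs in each library. Glo1, a glyoxalase, had 4791 and 3983 UMIs, a log2 ratio of -0.11. Hc, complement component C5, had 0 and 1 UMIs and Mx1, an antiviral GTPase, 3 and 8, too few to compare. H2-Ea-ps, the fifth name on this list beside Ifi202b, had no row under that symbol.

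Interferon-stimulated genes did not follow Ifi202b. Of 44 tested over all cells, 30 had a log2 ratio of 1 or more, where 6.39% of all genes did, and 1 had -1 or less, where 1.09% did. Their median was 1.47 beside 0.10 for all genes. Ifi27l2a, an interferon-induced mitochondrial protein, had 836 and 6069 UMIs (3.02). Bst2, which tethers viruses to the cell surface, had 582 and 1751 UMIs (1.74). Isg15, a ubiquitin-like modifier, had 556 and 1091 UMIs (1.13). Further genes past a ratio of 1, from 1.08 (Stat2) to 3.47 (Ifit3), were Ifit1, Ifit2, Ifit3, Ifit3b, Irf7, Irf9, Stat2, Oas1a, Oas3, Oasl2, Ifi44, Ifi47, Dhx58, Rtp4, Xaf1, Zbp1, Cmpk2, Gbp2, Gbp3, Gbp7, Igtp, Irgm1, Iigp1, Lgals3bp, Phf11d and Epsti1. Oasl1 was the lower gene, with 22 and 6 UMIs (-1.63).

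These ratios differed by population. In IFE basal-like cells 20 of 31 interferon-stimulated genes had a log2 ratio of 1 or more, where 2.51% of genes did, and the median was 1.57. Ifi202b lay at -0.40 in the same cells, below 30 of the 31. In fibroblast-like cells 9 of 33 did, against 4.96% of genes, with a median of 0.70. In HF-SC-like cluster 2, 0 of 16 were that high and 1 lay at -1 or less, where 3.04% and 2.45% of genes did, with a median of 0.05.

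**Figure D5:**
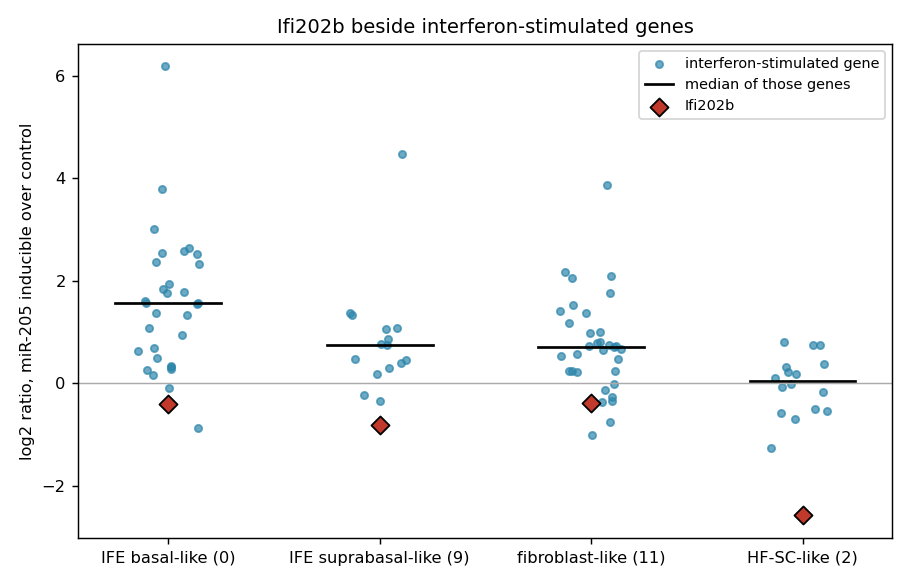
Log2 ratio, induced over control, of each interferon-stimulated gene with at least 20 UMIs in 4 clusters (blue points, black line at their median) and of Ifi202b (red diamond). Ifi202b lay below the median in all 4 clusters, where the medians were 1.57, 0.75, 0.70 and 0.05.

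Among genes of cytosolic DNA sensing 13 were tested, and 1 had a log2 ratio of 1 or more, Zbp1, a sensor of Z-form nucleic acids (49 and 150.0 UMIs, 1.76), a share near the 6.39% of all genes. Pycard, the inflammasome adaptor, lay at 0.39, Il1b at -0.51 and Tmem173, which encodes STING, at 0.82. Of the interferon receptor genes and their kinases (Ifnar1, Ifnar2, Ifngr1, Ifngr2, Jak1 and Tyk2) 0 of 6 passed a ratio of 1 in either direction, where 6.39% and 1.09% of all genes lay that high and that low.

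Genes with the most similar pattern were sought over the 23 control clusters with at least 20 cells, by Pearson correlation of log2(CPM + 10) among 10801 genes. The clusters share 1 library, so r is a description only. The 8 most alike were 2310007B03Rik (r = 0.83 in the control, 0.67 over the induced clusters), Gm15987 (0.83, 0.78), Rab30 (0.82, 0.63), Cdyl (0.82, 0.73), Tslp (0.82, 0.80), Il33 (0.81, 0.79), Il15ra (0.81, 0.80) and Il1rl2 (0.80, 0.71). Tslp and Il33 encode epithelial cytokines released at barrier surfaces, Il15ra and Il1rl2 cytokine receptors. In control IFE basal-like cells Tslp stood at 294 CPM and Il33 at 114 CPM, and in HF-SC-like cluster 2 at 3.35 and 3.66 CPM. Their own log2 ratios in IFE basal-like cells were -0.32 and 0.06. Among interferon-stimulated genes the highest r was 0.52, of Ifi27.

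Single cells with at least 5 Ifi202b UMIs were also compared with those with none, pooled over clusters that held both and not cluster by cluster. In the control, over 13 clusters with 1313 and 1146 such cells, Tslp was 16.1-fold higher in the former, F3 (tissue factor) 10.9-fold, Ptgs2 (cyclooxygenase 2) 7.45-fold and Sesn2 6.04-fold. Rgs2, Serpinb2 and Plaur followed with 5.17, 4.93 and 4.45-fold. In the induced library, over 11 clusters with 726 and 767 cells, F3 was 5.44-fold and Ptgs2 4.72-fold higher. Itga2, Serpinb2, Man1a, Plaur and Epgn followed with 4.34 to 3.63-fold. Cells with and without Ifi202b divided unevenly over the clusters. In the control, cluster 0 held 559 cells with at least 5 UMIs and 7 with none, and cluster 2 held 10 and 267. In the induced library cluster 0 held 321 and 10. The part of this uneven division in the folds was not tested.

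In this comparison 4.65% of 12099 genes in the control and 3.11% of 11657 genes in the induced library were at least 2-fold higher in cells with Ifi202b. Of the IFE basal markers 2 of 6 and 1 of 6 were, while the summed level of that list was 22916 against 20659 CPM in the control and 21488 against 19474 CPM in the induced library. The suprabasal list stood at 2491 against 3747 CPM and at 3611 against 4379 CPM. Interferon-stimulated genes summed to 405 CPM in control cells with Ifi202b and 654 CPM in those without, and to 841 and 754 CPM in the induced library. Of these genes 1 of 31 was at least 2-fold higher in control cells with Ifi202b, and 6 of 34 in the induced library. The PYHIN genes beside Ifi202b summed to 37.9 against 14.1 CPM in the control, with 4 of 7 at least 2-fold higher. In the induced library they summed to 105 against 8.10 CPM, with 6 of 6. The cells with Ifi202b included 36 control and 35 induced fibroblast-like cells. There Ifi203, Ifi204, Ifi205, Ifi207, Ifi211 and Mndal stood at 67.2 CPM or more (control) and 178 CPM or more (induced). Over the epithelial clusters these genes lay at 2.25 CPM or less and 0.347 CPM or less. The sums therefore cannot be read as a pattern shared by all clusters.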

How the data were processed

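Ifi202b and the gene lists were chosen with earlier results of these data known. Raw counts of UMIs were deposited as whole numbers, made by the authors with Cell Ranger 3.0.1 (version per the file headers). The submitters' processing notes name the mm10 build. The sources used here do not give how reads matching several PYHIN genes were handled.

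The study's own filter was applied, which takes cells above 200 and below 5000 detected genes with under 10% mitochondrial UMIs. Both libraries were integrated with Seurat 5.3.0 (R 4.3.3) on 2000 variable genes and 30 dimensions, and clustered at resolution 0.8. A cluster was named when at least 3 markers with at least 20 UMIs were at least 2-fold higher in it, at least 1 of them was among its top 10 genes by fold, no class had more markers among those 10, and no other class that met the first conditions had as many. Clusters above 5000 CPM of Krt14 and Krt5 took no name from outside the epithelium. Doublets were not removed. Scrublet in scanpy 1.11.5 marked 4 and 5 barcodes by its own threshold, which was not used, and an alternative left out the 165 and 145 highest scores, from 0.8% per 1000 cells. UMIs were summed per cluster and library. Log2 ratios used a pseudocount of 0.5 UMIs, and genes were tested for a fold with at least 20 UMIs over both libraries. Cells with and without Ifi202b were compared with 1 CPM added to both levels. CPM intervals are exact Poisson, shares exact Clopper-Pearson, and ratios exact conditional binomial. Where no UMI was seen, the limit of 3 counts is printed. With 1 library per group no test was possible.

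Named genes were Ifi202b, PYHIN genes with at least 20 UMIs, list genes past a log2 ratio of 1, the strain list, neighbours past that ratio, and the 8 leading genes by each likeness measure. Those given with values among the interferon-stimulated genes past the ratio were chosen after their values were seen, as were Ifi206, Ifi208, Ifi213, Ifi214, Pycard, Il1b and Tmem173. On simulated data for all cells, 197 of 197 genes changed by a log2 of 1 among 14344 had the right sign, and 98.0% lay in their interval. The simulated counts were Poisson draws, which the intervals assume, so this checks the calculation only. It says nothing on spread between cells or mice. Computation used Python 3.11.15, numpy 2.4.6, scipy 1.17.1 and pandas 2.3.3. Values of some named genes are not reported here.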

Additional observations from a re-analysis of the deposited data

How the results depend on the processing

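No paired analysis was possible because each group is 1 library and the labels give no replicate numbers, and for the same reason no library could be left out. All 39 alternatives for the log2 ratio of Ifi202b were negative. Over all cells the ratio was -0.95 with every deposited barcode, outside the counting interval at -0.90 with under 5% mitochondrial UMIs, -1.06 with a median-of-ratios size factor, -1.05 as a mean over cells and -1.03 after thinning. Chosen after seeing the data, the control, induced and mean mixes of clusters gave -0.60, -0.61 and -0.60. In HF-SC-like cells it was -4.17 with under 5% mitochondrial UMIs, -1.81 after thinning and -1.84 with cells assigned singly by marker UMIs. Without the 5 highest HF-SC-like cells of each library, also added after seeing the data, it was -2.87. In epithelial clusters it was -0.84, -0.98, -0.998 and -0.98 for under 5% mitochondrial UMIs, size factor, mean over cells and thinning, and outside the epithelium -0.54 as a mean over cells. The share of Ifi202b UMIs in the top 5 control cells was 2.52% with under 5% mitochondrial UMIs, 1.43% without the 5 highest cells and 1.65% after thinning. In the induced library it was 4.18% and 2.68% for the first 2 of these.

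Counts past the fold depended on the minimum of UMIs per gene. Genes at 1 or more numbered 926, and 412 with at least 100 UMIs and 2872 with at least 1. Those at -1 or less numbered 158, and 64 and 1428. PYHIN genes at 1 or more were 2, and 1 with at least 100 UMIs, 6 with at least 1 UMI, 5 with under 5% mitochondrial UMIs and 1 with the size factor, under which 1, Ifi202b itself, lay at -1 or less. Interferon-stimulated genes at -1 or less were 0 with at least 100 UMIs. The cause of these shifts was not tested. Leaving out cells with a Ptprc or Cd74 UMI was run for the epithelial and HF-SC-like cells only, and scaling choices do not apply to shares of cells. With 1 mouse per group no spread between animals was measured.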
